A study of Mus musculus with 24 samples.

Results

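DNA methylation in the mouse is written, copied and removed by a small group of proteins, and 8 genes of this group are described here: Dnmt1, Dnmt3a, Dnmt3b, Dnmt3l, Uhrf1, Tet1, Tet2 and Tet3. They were taken by gene name. All 8 were found once in each of 2 FPKM tables, which list 23177 and 21688 genes (FPKM counts fragments relative to transcript length and to library size). All 8 also passed the filter on low values, a mean FPKM of at least 0.1.

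The libraries came from testes of mice at postnatal day 7, with the testes of 3 mice pooled for each isolation. Magnetic beads were used to sort cells with THY1 on their surface, a fraction rich in undifferentiated spermatogonia (uSPG), and cells with KIT, rich in differentiating ones (dSPG). In the Zbtb16 table, Zbtb16 null mice, which carry the luxoid allele in every cell of the body, stand beside WT controls. In the Sox3 table, mice with a floxed Sox3 allele deleted in germ cells by Ddx4-Cre (cKO) stand beside their WT controls. Each combination of genotype and fraction has 3 libraries, which makes 8 groups and 24 libraries. The labels do not say whether replicates were processed on separate days, so the p-values measure the spread between pooled isolations.

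In newborn male germ cells the methylation pattern of the sperm genome has largely been set by the de novo enzymes. Among the members, Dnmt3a and Dnmt3b are catalytic de novo enzymes, and Dnmt3l is their partner without catalytic activity, needed in fetal prospermatogonia. Dnmt1 copies methylation onto the new strand at replication, and Uhrf1 brings Dnmt1 to the half-methylated sites. The TET enzymes oxidise 5-methylcytosine, which opens the way to its loss. Methylation enzymes are of interest in spermatogonia because the step from THY1+ to KIT+ cells comes with a gain of DNMT3A and DNMT3B protein.

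The targeted genes and sorting markers were checked first. Zbtb16 stood at 42.0 to 58.7 FPKM in WT THY1+ libraries and at 15.6 to 18.2 in null THY1+ libraries, so its transcript was reduced but present. Sox3 stood at 0 to 0.0820 FPKM in the 6 cKO libraries and at 6.28 to 24.4 in the 6 WT libraries of that table. In the WT libraries of the Sox3 table the sorting markers go against the fraction labels. Thy1 was 0.213 to 0.254 FPKM in the libraries labelled THY1+ and 3.59 to 4.06 in those labelled KIT+, and Kit was 45.6 to 80.1 and 12.97 to 18.8. These libraries were not regrouped and are called "labelled THY1+" and "labelled KIT+" below. The fractions also hold other cells. Macrophage markers summed to 819 to 926 FPKM in WT THY1+ and to 6.20 to 8.09 in WT KIT+ libraries, and Leydig cell markers to 112 to 144 and 1329 to 2383. In bulk RNA, fewer cells of a type and less RNA per cell cannot be told apart. Depth, estimated from the steps of 1 read in genes with a single transcript, was 25900000 to 35200000 reads in the Zbtb16 table. In the Sox3 table it was 28300000 to 31900000 in replicate 1 and 11000000 to 14900000 in replicates 2 and 3.

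Promoters of 6 members are shown because the results below turn on 3 pairs: Dnmt1 and Uhrf1, which moved together, Dnmt3a and Dnmt3b, whose ratio changed, and Tet1 and Tet2, which moved together. Each is the RefSeq window from 250 bases before to 50 bases after the start site, in GRCm38.p6, written 5′ to 3′ along the gene. Where RefSeq gave several start sites, the window with the most CpG is printed. In the first pair the capitals mark TTTCGCGC or TTTGGCGC on either strand, the letters of an E2F binding site, which is known from genes of S phase.
Dnmt1 (chr9:20952574-20952873, minus strand): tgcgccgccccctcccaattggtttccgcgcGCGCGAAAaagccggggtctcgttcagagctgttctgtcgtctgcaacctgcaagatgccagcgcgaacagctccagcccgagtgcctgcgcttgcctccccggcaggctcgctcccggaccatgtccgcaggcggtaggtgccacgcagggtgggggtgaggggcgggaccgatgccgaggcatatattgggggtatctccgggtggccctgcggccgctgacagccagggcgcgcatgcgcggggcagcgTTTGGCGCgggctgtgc
Uhrf1 (chr17:56304063-56304362, plus strand): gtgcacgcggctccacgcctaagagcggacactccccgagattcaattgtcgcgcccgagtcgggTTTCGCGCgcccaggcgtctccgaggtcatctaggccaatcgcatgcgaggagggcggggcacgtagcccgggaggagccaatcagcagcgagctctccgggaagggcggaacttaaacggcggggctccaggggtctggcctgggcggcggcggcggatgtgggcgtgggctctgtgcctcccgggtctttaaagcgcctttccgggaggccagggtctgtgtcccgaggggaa
In the other pairs the capitals mark GGGCGG on either strand, the letters of a GC box.
Dnmt3a (chr12:3806910-3807209, plus strand): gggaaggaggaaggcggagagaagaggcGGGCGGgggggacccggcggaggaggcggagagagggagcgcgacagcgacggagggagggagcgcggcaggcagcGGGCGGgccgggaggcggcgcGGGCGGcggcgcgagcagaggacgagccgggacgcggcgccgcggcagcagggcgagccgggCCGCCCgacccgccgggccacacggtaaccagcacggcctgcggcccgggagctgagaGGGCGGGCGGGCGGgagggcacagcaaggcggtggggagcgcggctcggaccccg
Dnmt3b (chr2:153649199-153649498, plus strand): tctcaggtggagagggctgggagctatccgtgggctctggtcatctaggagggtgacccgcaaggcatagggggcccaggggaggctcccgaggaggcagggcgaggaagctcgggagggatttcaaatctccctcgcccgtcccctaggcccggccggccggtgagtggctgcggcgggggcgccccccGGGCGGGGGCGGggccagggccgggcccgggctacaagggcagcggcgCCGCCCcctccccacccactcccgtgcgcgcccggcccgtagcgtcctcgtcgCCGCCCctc
Tet1 (chr10:62887275-62887574, minus strand): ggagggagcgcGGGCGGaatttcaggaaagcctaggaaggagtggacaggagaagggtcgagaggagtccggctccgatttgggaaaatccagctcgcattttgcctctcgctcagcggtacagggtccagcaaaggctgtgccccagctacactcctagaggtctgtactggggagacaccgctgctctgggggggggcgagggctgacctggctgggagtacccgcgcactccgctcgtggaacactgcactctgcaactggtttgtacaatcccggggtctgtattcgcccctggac
Tet2 (chr3:133544341-133544640, minus strand): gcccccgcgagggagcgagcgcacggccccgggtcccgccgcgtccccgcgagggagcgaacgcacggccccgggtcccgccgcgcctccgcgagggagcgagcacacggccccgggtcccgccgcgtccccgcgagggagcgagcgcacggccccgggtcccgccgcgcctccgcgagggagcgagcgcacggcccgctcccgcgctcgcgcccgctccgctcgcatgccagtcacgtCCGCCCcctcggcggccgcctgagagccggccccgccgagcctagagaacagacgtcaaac
The E2F letters were found in 2 of the 15 windows that RefSeq gives for the 8 members, these of Dnmt1 and Uhrf1, and in 0.813% of all 32851 promoter windows. Dnmt1 holds them at 2 positions, which start 219 bases before and 33 bases after the start site, and Uhrf1 at 1 position, 185 bases before it. Both windows hold 33 CpG, against a median of 7 over all windows. The other 2 Dnmt1 windows, further upstream, hold 12 and 2 CpG and no E2F letters. Letters of a GC box were found 7 times in the Dnmt3a window, 4 times in that of Dnmt3b and 1 time in each of those of Tet1 and Tet2, and in 35.7% of all windows. The Tet2 window has 57 CpG, more than 99.8% of all windows. The 3 Dnmt3l windows hold 6, 4 and 3 CpG. A match of letters is a description of the sequence and says nothing of binding in these cells.

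The levels of the 8 members spanned more than the differences between groups did. In WT THY1+ libraries of the Zbtb16 table, Dnmt1 was highest at 70.3 ± 13.5 FPKM (SD, n = 3), followed by Uhrf1 at 42.6 ± 8.08. Dnmt3b at 16.6 ± 2.53 stood above Dnmt3a at 10.5 ± 1.87, with no overlap between their libraries. This order rests on the lengths by which FPKM divides. With the joined exons of GENCODE M21, 16642 bases for Dnmt3a and 5106 for Dnmt3b, Dnmt3a had more estimated reads. These were 4380 to 5986 for Dnmt3a and 2209 to 2847 for Dnmt3b. Tet3 at 8.37 ± 1.503 was the highest of the TET genes, although its libraries overlapped those of Dnmt3a, then came Tet2 at 5.20 ± 0.382 and Tet1 at 2.22 ± 0.275. Dnmt3l was lowest at 0.492 ± 0.149, and its neighbours in this order did not overlap with it. The order of Dnmt1, Uhrf1 and Dnmt3b at the top and of Tet2, Tet1 and Dnmt3l at the bottom held for the group means of all 8 groups. Dnmt3l values rest on 9 to 81 reads a library, whereas each other member had an estimated 198 reads or more in every library, so the error of Dnmt3l holds a larger part of counting error.

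**Figure D1:**
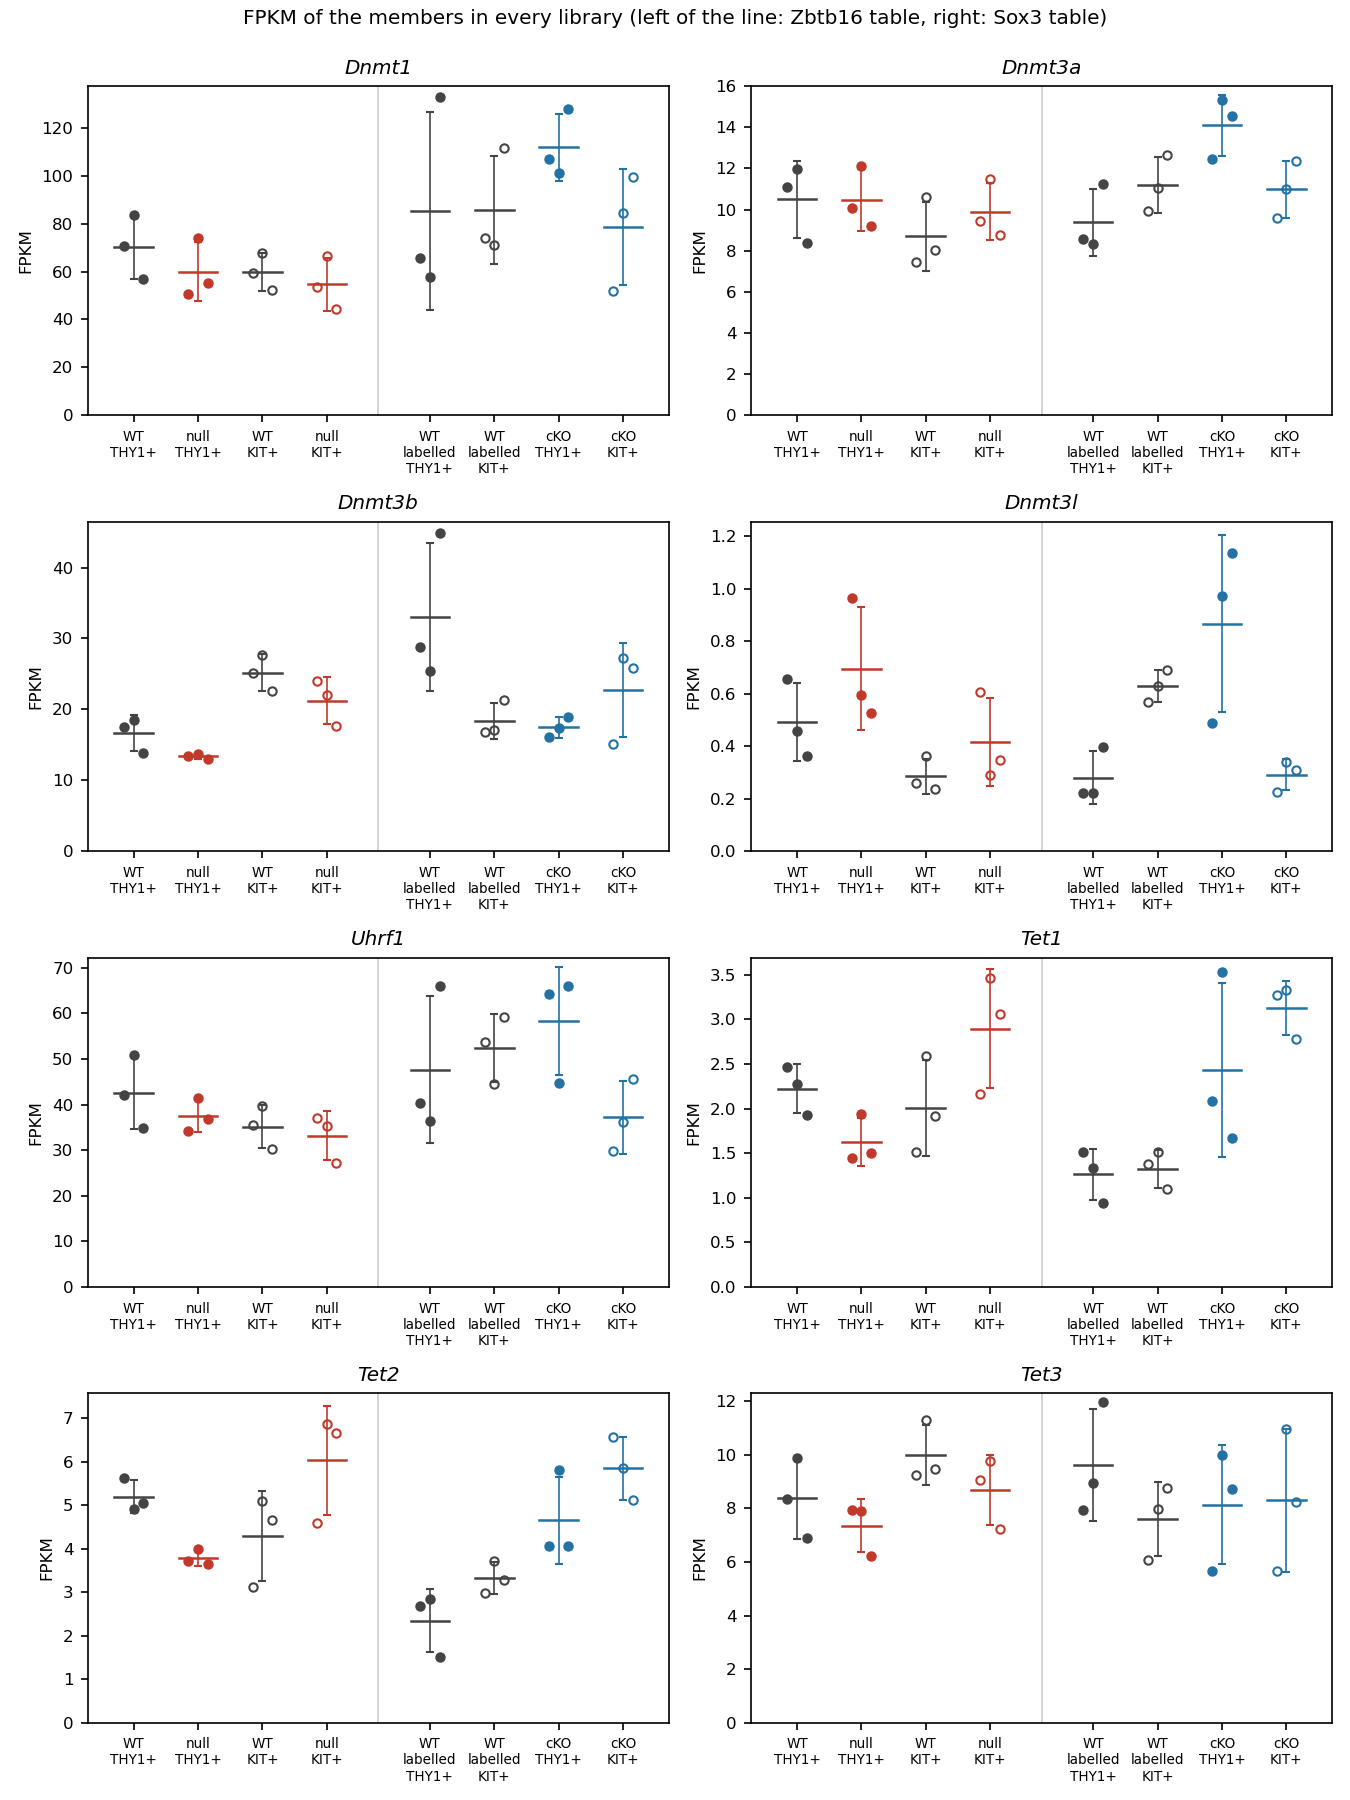
FPKM (linear axes from 0) of the 8 members in each of the 24 libraries, with filled points for libraries labelled THY1+, open points for those labelled KIT+, a bar at the group mean and whiskers of 1 SD (n = 3). Dnmt3b sits higher in KIT+ than in THY1+ of the Zbtb16 table in both genotypes, and all 6 cKO libraries sit above the 6 WT libraries of the Sox3 table for Tet1 and Tet2.

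The first question was whether the members changed over the step from THY1+ uSPG to KIT+ dSPG. In WT cells 1 of 8 members passed the test in the Zbtb16 table, Dnmt3b, which rose 1.52-fold. Over all genes tested, 21.2% passed the same thresholds, which are 0.05 for the adjusted p and 1.5 for the fold. The median log2 difference of the 8 members was -0.25, against -0.028 over all genes.

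Dnmt3b stood at 17.6, 18.6 and 13.8 FPKM in the WT THY1+ libraries and at 25.2, 27.7 and 22.6 in the WT KIT+ libraries. The lowest KIT+ library was above the highest THY1+ library. The log2 difference was 0.60 (SE 0.14, limma, adjusted p = 0.00731). This change lies just above 1.5-fold. It was 0.47 on the log2 scale without WT THY1+ replicate 3 and 0.53 without WT KIT+ replicate 2, below the fold threshold, with adjusted p-values of 0.0262 and 0.0272. Leydig cell markers moved with it, with 8 of 8 called higher, as did Sertoli cell markers with 3 of 8, whereas 0 of 8 germ cell markers were called. Their part in the Dnmt3b value was not tested. Dnmt3a, the other catalytic de novo enzyme among the members, stood at 11.1, 11.97 and 8.39 FPKM in WT THY1+ libraries. In WT KIT+ libraries it stood at 7.43, 10.6 and 8.03, which overlap. Its log2 difference was -0.27 (95% interval -0.66 to 0.12, adjusted p = 0.286).

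Dnmt3l, the partner without catalytic activity, had 0.656, 0.457 and 0.363 FPKM in WT THY1+ and 0.258, 0.361 and 0.238 in WT KIT+ libraries. The lowest THY1+ and the highest KIT+ library were next to each other without overlap, and the difference of -0.60 on the log2 scale did not pass (adjusted p = 0.141). The maintenance pair also did not pass. Dnmt1 had a log2 difference of -0.23 (95% interval -0.65 to 0.20) and Uhrf1 of -0.27 (95% interval -0.63 to 0.084). The TET genes, which remove methylation by oxidation, gave log2 differences of -0.16 for Tet1, -0.30 for Tet2 and 0.26 for Tet3, with adjusted p-values of 0.632, 0.279 and 0.259.

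In Zbtb16 null mice 3 of 8 members rose over the same step, against 29.2% of all genes called in either direction. Dnmt3b went from 13.5, 13.7 and 13.02 FPKM in null THY1+ to 24.1, 22.0 and 17.6 in null KIT+ libraries, again with no overlap, a log2 difference of 0.65 (SE 0.14, adjusted p = 0.00322). Without null KIT+ replicate 1 it was 0.55, below the fold threshold (adjusted p = 0.0136). Tet1 was 1.45, 1.94 and 1.501 in null THY1+ and 2.16, 3.46 and 3.06 in null KIT+ libraries, 1.72-fold higher (adjusted p = 0.0171). Tet2 was 3.73, 4.004 and 3.65 and 4.60, 6.86 and 6.65, 1.55-fold higher (adjusted p = 0.0218). For both TET genes every null KIT+ library lay above every null THY1+ library. Both calls were lost, with adjusted p-values of 0.0544 to 0.0823, when any 1 of null THY1+ replicates 1 and 3 and null KIT+ replicates 2 and 3 was left out. Leydig and Sertoli cell markers moved the same way over this step in the null. Leydig cell markers, all 8 of 8 called higher, summed to 85.8 to 108 FPKM in THY1+ and 2211 to 3263 in KIT+ libraries. Of the Sertoli cell markers 6 of 8 were called higher, with sums of 9.92 to 13.9 and 54.1 to 72.3. Macrophage sums went the other way, with 379.7 to 724 FPKM in THY1+ and 6.14 to 15.1 in KIT+ libraries. T cell sums also fell, with 10.5 to 11.6 and 1.78 to 2.44. Peritubular and stromal sums and endothelial sums overlapped between the fractions. Of the germ cell markers 6 of 8 were called lower, with sums of 1274 to 1613 FPKM in THY1+ and 777 to 1146 in KIT+ libraries. The part of these cells in the Tet1 and Tet2 values was not tested. Dnmt3l had 0.962, 0.596 and 0.526 FPKM in null THY1+ and 0.606, 0.291 and 0.347 in null KIT+ libraries, which overlap, and its difference of -0.64 on the log2 scale did not pass (adjusted p = 0.101). Without null KIT+ replicate 1 it passed, at -0.89 (adjusted p = 0.0313).

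In cKO cells, 1 of 8 members passed in the Sox3 table, Dnmt3l, against 22.7% of all genes. Dnmt3l fell from 0.488, 0.972 and 1.14 FPKM in cKO THY1+ to 0.225, 0.339 and 0.311 in cKO KIT+ libraries, 2.37-fold lower (SE 0.30 on the log2 scale, adjusted p = 0.00869). Every KIT+ library was below every THY1+ library. Over the same step all 8 of 8 Leydig cell markers were called higher, with sums of 94.9 to 137 FPKM in THY1+ and 2633 to 5191 in KIT+ libraries, and all 9 of 9 macrophage markers lower, with sums of 987 to 1132 and 8.47 to 9.30. All 8 germ cell markers had negative differences, of which 2 were called. The part of these cells in the Dnmt3l value was not tested. Dnmt3b stood at 16.0, 17.4 and 19.0 and 15.2, 27.3 and 25.8, which overlap through cKO KIT+ replicate 1, and its difference of 0.33 did not pass (95% interval -0.19 to 0.86, adjusted p = 0.323). Uhrf1 had 64.2, 44.8 and 66.0 FPKM in cKO THY1+ and 29.8, 36.1 and 45.7 in cKO KIT+ libraries, a difference of -0.65 that missed the threshold (adjusted p = 0.0614). It passed without any 1 of WT labelled THY1+ replicate 3, cKO THY1+ replicate 2 and cKO KIT+ replicate 3, with adjusted p-values of 0.0243 to 0.0428. With replicates 2 and 3 alone the Uhrf1 difference was -0.42 (adjusted p = 0.432). The libraries of Dnmt1 and Dnmt3a were also all lower in cKO KIT+, with log2 differences of -0.55 and -0.36 that did not pass.

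Between the WT libraries of the Sox3 table, whose markers go against their labels, 2 of 8 members passed and 19.7% of all genes. Dnmt3b was 28.8, 25.4 and 44.9 FPKM in those labelled THY1+ and 16.8, 17.0 and 21.3 in those labelled KIT+, and Dnmt3l was 0.220, 0.221 and 0.396 and 0.568, 0.628 and 0.691. As labelled, Dnmt3b thus had a log2 difference of -0.81 (adjusted p = 0.0286) and Dnmt3l of 0.97 (adjusted p = 0.0323) in KIT+ against THY1+, each opposite in sign to the 3 other KIT+ against THY1+ comparisons. The Dnmt3b call was lost without WT labelled THY1+ replicate 3, WT labelled KIT+ replicate 1 or WT labelled KIT+ replicate 2, with adjusted p-values of 0.0821 to 0.0929. The Dnmt3l call was lost without any WT library other than labelled THY1+ replicate 3, with adjusted p-values of 0.0573 to 0.110.

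**Figure D2:**
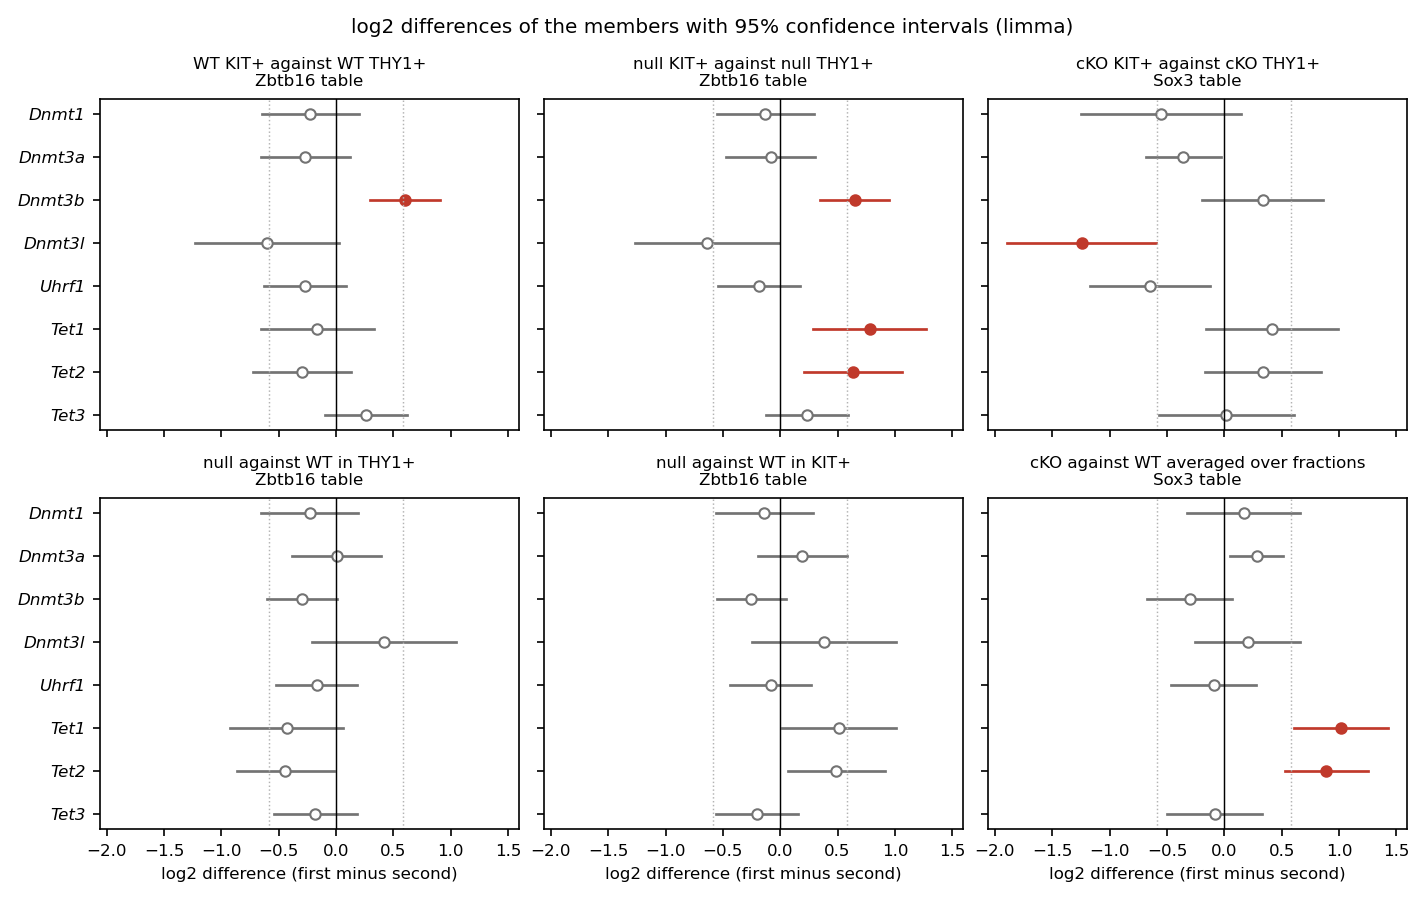
Log2 differences of the members (points) with 95% confidence intervals (lines) from limma in 6 comparisons, first group minus second, with dotted lines at 1.5-fold and filled red points for members that passed both thresholds. Dnmt3b passed in the WT and null fraction steps, Dnmt3l in the cKO fraction step, and Tet1 and Tet2 in the null fraction step and in cKO against WT.

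The ratio of 2 members within a library does not depend on how that library was scaled. It does not remove differences by transcript length, and the longest is 9.685 kb for Dnmt3a and 4.32 kb for Dnmt3b. Genes with transcripts of at least 9 kb had median log2 differences of -0.20 over the WT and -0.11 over the null step. For all genes whose mean reached 1 FPKM these were -0.010 and -0.023. The part of length in the ratio was not tested. Dnmt3b alone reached 18.6 FPKM in WT THY1+ and stood as low as 17.6 in null KIT+ libraries, so that the fractions overlap across genotypes. The ratio of Dnmt3b to Dnmt3a FPKM was 1.58, 1.55 and 1.64 in WT THY1+ and 3.39, 2.61 and 2.81 in WT KIT+ libraries. In the null it was 1.33, 1.13 and 1.41 in THY1+ and 2.55, 1.92 and 2.003 in KIT+ libraries. All 6 KIT+ libraries of the Zbtb16 table thus lay above all 6 THY1+ libraries, on average 1.75-fold, and an exact two-sided permutation test within genotype gave p = 0.005, the smallest it can give. This ratio was also lower in the null than in WT within each fraction, without overlap in either, by 0.38 on the log2 scale or 1.30-fold (exact permutation test within fraction, p = 0.005). Over the 16 tests made on 4 such ratios, both have an adjusted p of 0.0267. Both tests take libraries of the same replicate number as independent, although such libraries correlated (mean r = 0.40 in the Zbtb16 table). Each replicate number is in every group, so this can make the p-values too small or too large, which was not tested. The ratios were chosen after the values were seen. In the Sox3 table the ratio was 1.29, 1.14 and 1.31 in cKO THY1+ and 1.59, 2.47 and 2.09 in cKO KIT+ libraries, again without overlap. Here 3 libraries against 3 cannot go below 0.10 in an exact permutation test. It was 3.35, 3.06 and 3.99 in WT libraries labelled THY1+ and 1.69, 1.54 and 1.69 in those labelled KIT+. As a share of the summed FPKM of the 3 Dnmt3 members, Dnmt3b went from 60.3% ± 0.736 (SD, n = 3) in WT THY1+ to 73.8% ± 2.54 in WT KIT+ libraries. The size of these shares rests on the gene lengths used for FPKM.

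For the maintenance pair, the ratio of Dnmt1 to Uhrf1 averaged 1.65 ± 0.0249 (SD, n = 3) in WT THY1+ and 1.70 ± 0.0300 in WT KIT+ libraries, and over both genotypes the fraction difference was 0.050 on the log2 scale (exact permutation p = 0.455). Across the 24 libraries, after each gene was centred within its table, Dnmt1 and Uhrf1 had a Pearson r of 0.87, and Tet1 and Tet2 one of 0.92. Both are descriptions over libraries that share groups and library composition. Tet3 and Dnmt3b had an r of 0.84 in the Zbtb16 and 0.73 in the Sox3 table. For Tet3 and Tet1 it was 0.38 and -0.14, and for Tet3 and Tet2 0.18 and -0.28.

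**Figure D3:**
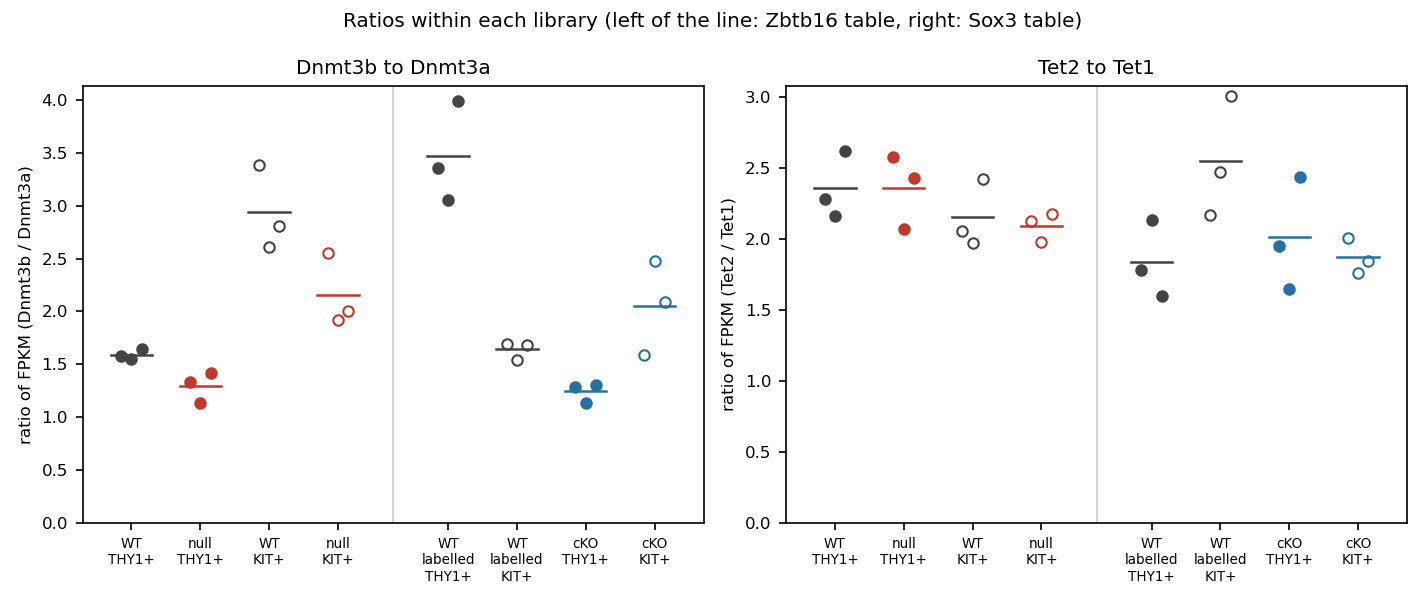
Ratio of Dnmt3b to Dnmt3a FPKM (left panel) and of Tet2 to Tet1 FPKM (right panel) in each library, on linear axes from 0, with filled points for libraries labelled THY1+, open points for those labelled KIT+ and a bar at the group mean. The Dnmt3b to Dnmt3a ratio lies at 1.13 to 1.64 in the 6 THY1+ and at 1.92 to 3.39 in the 6 KIT+ libraries of the Zbtb16 table, whereas the groups of the Tet2 to Tet1 ratio overlap there.

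Loss of Zbtb16 was compared with WT within each fraction, to ask whether this transcription factor of undifferentiated cells affects the members. In THY1+ cells 0 of 8 members passed in limma, against 3.98% of all genes, and in KIT+ cells 0 of 8, against 0.259%. The unadjusted tests of these 16 values gave p under 0.05 for Tet2 in THY1+ and for Tet1 and Tet2 in KIT+ cells. Tet2 stood at 5.64, 4.92 and 5.04 FPKM in WT THY1+ and at 3.73, 4.004 and 3.65 in null THY1+ libraries. Every null library was below every WT library, with a log2 difference of -0.44 (95% interval -0.87 to -0.02, adjusted p = 0.193). Dnmt3b, at 13.5, 13.7 and 13.02 in null against 17.6, 18.6 and 13.8 in WT THY1+ libraries, was likewise lower in every null library, by 1.23-fold (adjusted p = 0.215). With libraries shifted to equal germ cell markers Dnmt3b passed, at -0.65 on the log2 scale (adjusted p = 0.0381). Such a shift moves the difference of every gene by the same amount. Markers of other cells were lower in the null THY1+ libraries too. All 8 Sertoli, 7 of 8 Leydig, all 8 peritubular and stromal and all 9 macrophage markers had negative differences, of which 1, a macrophage marker, was called, whereas all 8 germ cell markers had positive ones without a call. Macrophage markers summed to 819 to 926 FPKM in WT and to 379.7 to 724 in null THY1+ libraries. The part of these cells in the Tet2 and Dnmt3b values was not tested.

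In KIT+ cells both TET values were positive. Tet1 had a log2 difference of 0.51 in null against WT KIT+ (95% interval 0.016 to 1.01) and Tet2 of 0.49 (95% interval 0.066 to 0.91), and for both the libraries overlapped. The interaction asks whether the null changed the step itself. It was 0.94 for Tet1 (adjusted p = 0.133) and 0.93 for Tet2 (adjusted p = 0.107), so that 0 of 8 members passed, against 0.0313% of all genes. Without null KIT+ replicate 1 the Tet2 interaction passed (1.11 on the log2 scale, adjusted p = 0.0451). A fit with a replicate block called both, with many more calls over all genes too, as given below under the processing. With libraries shifted to equal germ cell markers both passed, Tet1 at 1.49 (adjusted p = 0.0442) and Tet2 at 1.48 (adjusted p = 0.0371). This shift moves the interaction of every gene by the same amount, so that part of these values is not particular to Tet1 and Tet2. Without the shift, the other 6 members had interactions between -0.034 and 0.19. In the interaction all 8 Sertoli, all 8 Leydig and all 8 peritubular and stromal markers had positive values and all 8 germ cell markers negative ones, without a call among them, and peritubular and stromal markers summed to 158 to 293 FPKM in WT KIT+ and 248 to 469 in null KIT+ libraries. Their part in the TET values was not tested.

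Loss of Sox3 was compared over both fractions together, because exchange of the WT groups leaves the average of the 6 cKO against the 6 WT libraries as it is. It called 2 of 8 members, against 10.3% of all genes: Tet1 and Tet2. Tet1 stood at 1.51, 1.33 and 0.945 FPKM in WT labelled THY1+ and 1.38, 1.51 and 1.09 in WT labelled KIT+ libraries. In the cKO it stood at 2.09, 3.53 and 1.67 in THY1+ and 3.27, 3.33 and 2.78 in KIT+ libraries. All 6 cKO libraries were above all 6 WT libraries, on average 2.02-fold (log2 difference 1.02, SE 0.19, adjusted p = 0.00451).

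Tet2 gave 2.69, 2.83 and 1.51 FPKM in WT labelled THY1+ and 2.99, 3.72 and 3.29 in WT labelled KIT+ libraries. The cKO values were 4.07, 5.81 and 4.07 in THY1+ and 6.56, 5.86 and 5.13 in KIT+ libraries. Again no cKO library overlapped a WT library, and the difference was 1.85-fold (log2 0.89, SE 0.16, adjusted p = 0.00462). Both calls held in each of the 12 fits that left out 1 library. They were lost with replicates 2 and 3 alone, the shallower libraries, at about the same size (1.12 and 0.91 on the log2 scale, adjusted p = 0.0577 and 0.0587).

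Tet3, the TET gene with the highest level here, did not pass. It had 7.95 to 11.98 FPKM in WT labelled THY1+, 6.09 to 8.75 in WT labelled KIT+, 5.68 to 9.998 in cKO THY1+ and 5.66 to 10.98 in cKO KIT+ libraries, with an averaged log2 difference of -0.084 (95% interval -0.50 to 0.33). The ratio of Tet3 to Tet2 was 2.003-fold lower in cKO than in WT, although the groups overlapped. An exact permutation test over the 6 and 6 libraries gave p = 0.00433, with an adjusted p of 0.0267 over the 16 ratio tests. It takes libraries of the same replicate number as independent, although these had a mean correlation of 0.17. This p may therefore be too small or too large, which was not tested. Of the writers, Dnmt3a came closest to a call, with 0.28 on the log2 scale (95% interval 0.048 to 0.51, adjusted p = 0.0743). It was 0.030 after a correction for transcript length and GC content (adjusted p = 0.743). With libraries shifted to equal germ cell markers, which moves the difference of every gene alike, it was 0.71 and passed (adjusted p = 0.000398). Dnmt1, Dnmt3b, Dnmt3l and Uhrf1 had averaged differences of 0.17, -0.30, 0.20 and -0.092, with adjusted p-values of 0.212 to 0.724.

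Other measures moved with the Tet1 and Tet2 values in the Sox3 table. Both genes have long transcripts, 14.4 kb and 9.18 kb for the longest in GENCODE M21, and the 468 genes with a transcript of at least 9 kb whose mean reached 1 FPKM had a median averaged log2 difference of 0.23, against 0.014 for all genes at that level. After a correction for length and GC content the differences were 0.72 for Tet1 and 0.63 for Tet2, and both still passed (adjusted p = 0.0199 and 0.0202). In the Zbtb16 null step the long genes had a median of -0.11, and the same correction gave 0.94 for Tet1 and 0.73 for Tet2. The correction was chosen after the data were seen, and the part of length in the Tet1 and Tet2 values was not tested.

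Markers of several somatic cell types were also higher in the cKO. On average over fractions 4 of 8 Leydig cell markers, 3 of 7 endothelial, 2 of 8 peritubular and stromal and 2 of 8 Sertoli cell markers were called higher and none lower. Endothelial markers summed to 16.4 to 23.3 FPKM in WT labelled THY1+, 14.98 to 18.3 in WT labelled KIT+, 22.1 to 35.8 in cKO THY1+ and 34.3 to 54.0 in cKO KIT+ libraries. Peritubular and stromal markers summed to 149 to 236, 245 to 449.7, 341 to 767 and 347 to 413 in the same order, and Sertoli markers to 43.1 to 51.4, 18.6 to 30.2, 20.6 to 39.8 and 84.2 to 116. Leydig markers summed to 1307 to 2154, 88.7 to 139, 94.9 to 137 and 2633 to 5191. No marker of these 4 lists was under 0.1 FPKM in every library of a cKO group, and Hsd3b6, a Leydig marker, was in WT labelled KIT+ libraries. All 8 germ cell markers had negative averaged differences (median -0.38, 1 called). The part of these cells in the Tet1 and Tet2 values was not tested.

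**Figure D4:**
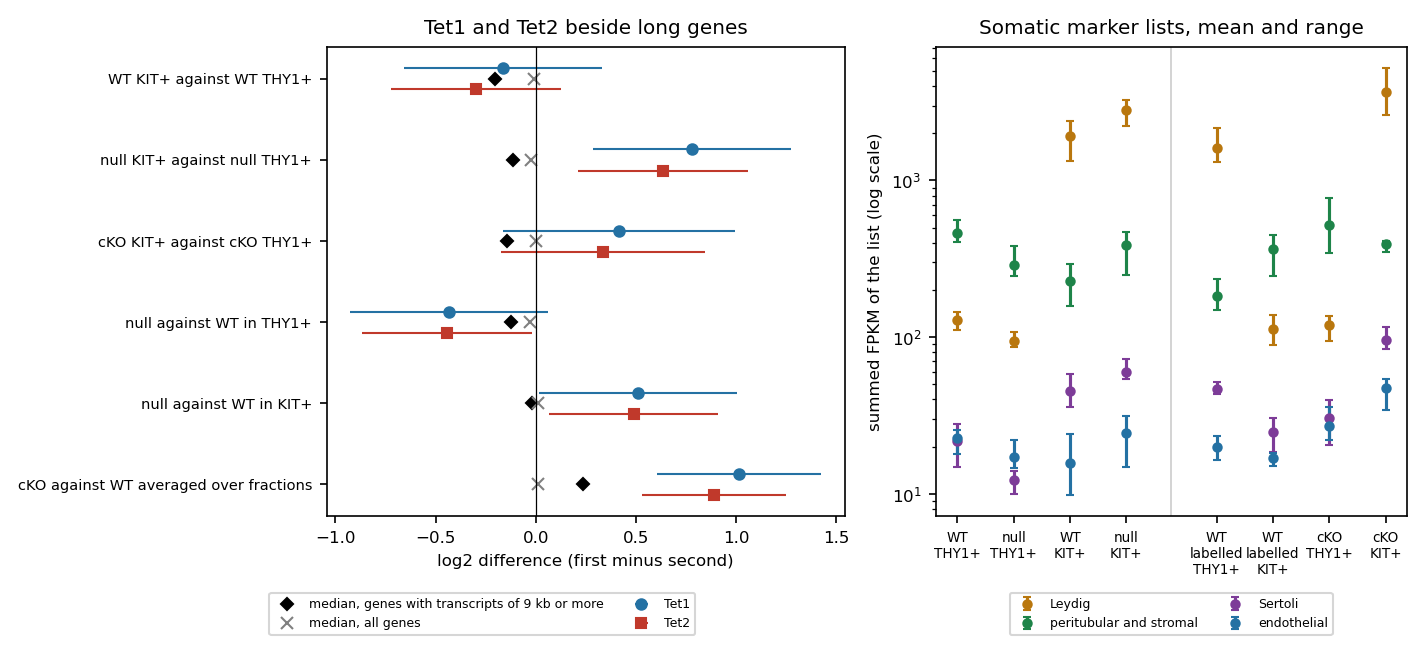
Left: log2 differences of Tet1 and Tet2 with 95% confidence intervals in 6 comparisons, with the median of the genes with transcripts of 9 kb or more (diamonds) and of all genes whose mean reached 1 FPKM (crosses). Right: summed FPKM (log axis) of 4 somatic marker lists in each group, as mean and range over 3 libraries. In cKO against WT the long genes lie at a median of 0.23 and Tet1 and Tet2 at 1.02 and 0.89, and the cKO KIT+ group has the highest mean Leydig, Sertoli and endothelial sums.

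By fraction, the comparisons of the Sox3 table depend on how the WT libraries are set against the cKO libraries, so both settings are given. Matched by label, 5 of 8 members passed in THY1+ (29.1% of all genes) and 3 of 8 in KIT+ (25.1%). In THY1+ these were Dnmt3a (0.59), Dnmt3b (-0.87), Dnmt3l (1.31), Tet1 (0.85) and Tet2 (0.99, all log2 differences of cKO against WT), and in KIT+ Dnmt3l (-0.90), Tet1 (1.18) and Tet2 (0.79). Dnmt3l thus passed in opposite directions. After the length and GC correction Dnmt3a (0.15, adjusted p = 0.184), Tet1 (0.38, adjusted p = 0.286) and Tet2 (0.57, adjusted p = 0.0776) did not pass in THY1+, whereas Tet3 did, at -0.70 (adjusted p = 0.00636). In THY1+ Dnmt3a was below the fold threshold without any 1 of WT replicates 1 and 2 and cKO replicates 2 and 3 (0.51 to 0.57), and the Tet1 call was lost without WT replicate 2, WT replicate 3 or cKO replicate 2 (adjusted p = 0.0515 to 0.0953). In KIT+ the Dnmt3l call was lost without any 1 of the 6 libraries compared (adjusted p = 0.05004 to 0.112), and the Tet2 call without any 1 of WT replicates 1 and 3 and cKO replicates 1 and 2 (adjusted p = 0.0517 to 0.0725). Set across labels, cKO THY1+ against WT labelled KIT+ gave 0 of 8 in limma (0.0707% of all genes, with p under 0.05 before adjustment for Dnmt3a and Tet1). Its values were 0.77 for Tet1 (adjusted p = 0.292) and 0.45 for Tet2 (adjusted p = 0.423). The cKO KIT+ against WT labelled THY1+ libraries gave 2 of 8, Tet1 at 1.26 (adjusted p = 0.00745) and Tet2 at 1.33 (adjusted p = 0.00390), against 17.0% of all genes. Tet1 and Tet2 were positive in all 4 of these comparisons, which share libraries. No Tet1 or Tet2 value of a cKO group overlapped one of a WT group of this table. The WT libraries of the Zbtb16 table held Tet1 at 1.93 to 2.47 FPKM in THY1+ and 1.52 to 2.59 in KIT+. Their Tet2 values were 4.92 to 5.64 and 3.13 to 5.10. Both genes thus overlapped there with cKO THY1+, at 1.67 to 3.53 for Tet1 and 4.07 to 5.81 for Tet2. The 2 tables were not compared by a test. The sizes and calls of the 3 Dnmt3 members differed between matching by label and across labels. The interaction of the fractions as labelled, in which 37.5% of all genes passed, is given with the further observations.

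**Figure D5:**
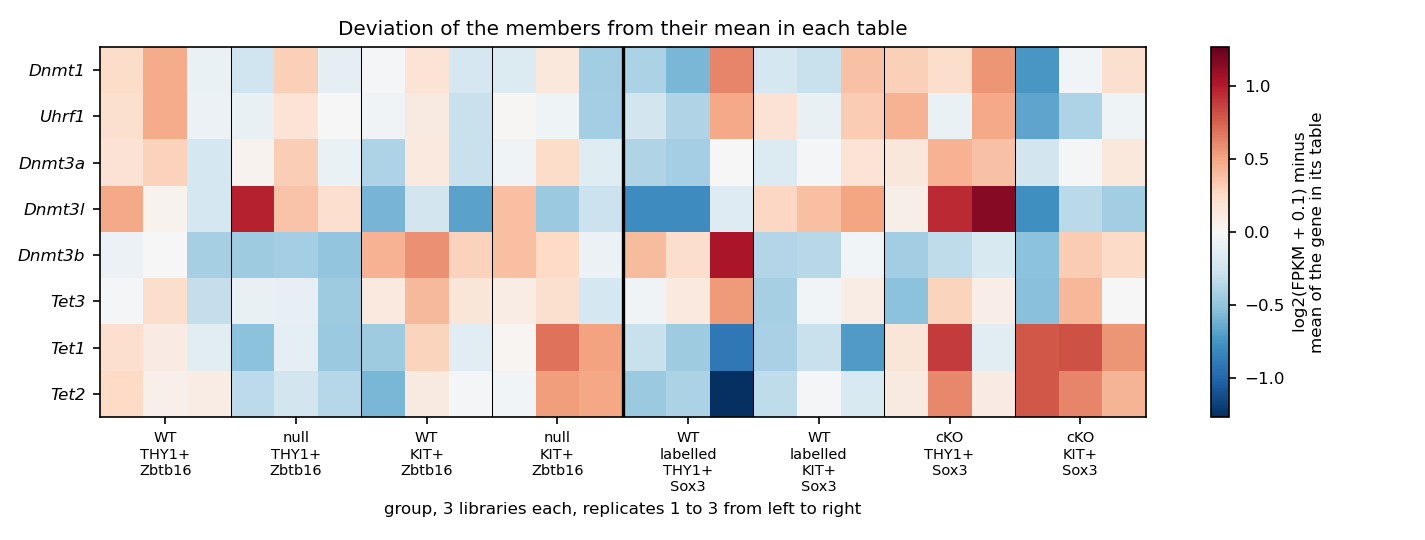
Deviation of each member's log2(FPKM + 0.1) from its mean in each table (colour, red above and blue below), with 1 column for each of the 24 libraries in groups of 3. Tet1 and Tet2 share their pattern over the libraries, as do Dnmt1 and Uhrf1, and in the Zbtb16 table Dnmt3b is above its mean in the WT KIT+ libraries.

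For each member, genes from the 3 most like it over the 24 libraries are named as a description, among 15870 genes whose mean reached 1 FPKM in both tables. Uhrf1 was most like Mcm3 (r = 0.94), Ncapd2 (0.94) and Timeless (0.93), which act in DNA replication, chromosome condensation and the replication fork. Dnmt1 was most like Nploc4 (r = 0.96), Smarca4 (0.95) and, as for Uhrf1, Ncapd2 (0.95). For Tet1 these were Itih5 (r = 0.97), Ror1 (0.96) and Slc1a3 (0.96), and for Tet2 Rbl2 (0.96), Mir99ahg (0.96) and a gene without a name in the tables (0.95). Dnmt3b was most like Mex3d, Ajuba and Zswim5 (r = 0.94 to 0.95) and Dnmt3a like Arhgap33, Tenm3 and Cul9 (0.94 to 0.95). Abcc10 and Agrn were among the genes most like Tet3 (r = 0.91 for both), and Dnmt3l was most like Vcpip1, Jakmip1 and Zcchc2 (0.86 to 0.87). Within a single table the order changed. Nploc4 had rank 1 for Dnmt1 in the Sox3 table and rank 80 in the other.

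The other genes of the pathway were taken from 6 lists with 51 genes. Partners of maintenance (Uhrf2, Hells, Cdca7, Usp7, Pcna and Dmap1) had 0 of 6 calls over the step from THY1+ to KIT+ in WT, null and cKO, as did the S phase and mitosis genes with 0 of 12. The TET partners and cofactors gave more calls: 5 of 8 were called higher and 1 lower in WT, 5 and 0 in the null, and 6 and 1 in the cKO, where 21.2%, 29.2% and 22.7% of all genes passed. Idh1 and Idh2, which make the 2-oxoglutarate that TET enzymes use, and the stress and repair genes Gadd45b and Gadd45g were among them. In the WT, Gadd45g went from 3.64 to 12.7 FPKM (log2 1.75, adjusted p = 0.000473) and Gadd45b from 5.23 to 13.1, whereas Cxxc5 fell from 17.3 to 9.82. In the null, Idh2 went from 15.7 to 54.4 FPKM (log2 1.78, adjusted p = 0.000316) and Idh1 from 41.5 to 108. Leydig markers were called higher at 8 of 8 in the same 3 comparisons, and their part in these values was not tested.

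Of the genes that guide or limit de novo methylation, 2 of 12 were called higher and 4 lower over the step in WT, 1 and 5 in the null and 1 and 5 in the cKO. Spocd1 and Piwil4, which direct methylation to young transposons through piRNA, were among those that fell in each. Spocd1 went from 4.87 to 1.78 FPKM in WT (log2 -1.39, adjusted p = 0.000125), from 11.51 to 3.24 in the null and from 5.37 to 1.78 in the cKO. Piwil4 went from 7.77 to 3.71, 14.2 to 4.037 and 8.29 to 3.57 in the same comparisons. In null against WT THY1+ cells, 4 of 12 genes of this list were called higher and none lower, while 3.98% of all genes passed. Among them Spocd1 rose from 4.87 to 11.51 FPKM (log2 1.22, adjusted p = 0.00282) and Piwil4 from 7.77 to 14.2 (adjusted p = 0.00466), and Dppa3, which keeps UHRF1 from its sites in oocytes, rose from 0.282 to 1.81 (adjusted p = 0.00927). In the cKO against WT average Dppa3 was the only call of this list and fell from 1.29 to 0.0673 FPKM (adjusted p = 0.000361). It was listed at 0 in all 3 cKO KIT+ libraries. All 8 germ cell markers had positive differences in null against WT THY1+ cells, without a call, and their part in these values was not tested.

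For the remaining lists the same shares of all genes passed over the step, 21.2% in WT, 29.2% in the null and 22.7% in the cKO. Methyl donor supply had 2 of 8 calls lower in WT and 2 in the null and 1 in the cKO over the step, in each of which Mtr, methionine synthase, was one (from 78.3 to 41.3 FPKM in WT, adjusted p = 0.00431). Base excision repair had 2 of 10 lower in WT, Parp1 (183 to 116 FPKM) and Neil2 (10.8 to 7.19), 1 in the null, Neil2, and both in the cKO. Readers of methylated CpG had 0 of 7 calls in WT and in the cKO and 1 in the null, Zbtb33 (24.7 to 15.9 FPKM, adjusted p = 0.0108). In cKO against WT averaged over fractions, where 10.3% of all genes passed, 1 of 8 genes of methyl donor supply, 1 of 7 readers and none of the 10 excision repair genes were called. Idh2 (27.7 to 49.4 FPKM, adjusted p = 0.00614), the reader Zbtb4 (2.001 to 3.20 FPKM, adjusted p = 0.0104) and Mat1a (0.421 to 0.754 FPKM, adjusted p = 0.0107), which makes the methyl donor in liver, rose beside Tet1 and Tet2.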

How the data were processed

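RNA was sequenced from 24 libraries of sorted mouse spermatogonia, with 12 libraries in each table. The deposited values are FPKM per gene: per the labels and the methods of the study, the authors prepared stranded libraries after ribosomal RNA depletion, aligned reads with Novoalign to mm10 and computed FPKM. The strand setting and the gene lengths used in counting are not given in the sources used here. The authors tested counts with DESeq2, which FPKM cannot serve, so limma 3.58.1 in R 4.3.3 was fitted to log2(FPKM + 0.1) with a mean for each of the 4 groups of a table (eBayes with trend and robust). The 22374 and 21212 genes whose mean reached 0.1 FPKM entered, with Benjamini-Hochberg adjustment over all of them. A call is an adjusted p of at most 0.05 and at least 1.5-fold. Fold changes on this scale understate those of low genes such as Dnmt3l. All comparisons within a table share libraries. Between 87.5% and 90.9% of low values in genes with a single transcript were within 0.05 of whole reads, which gave the depth, and counts were not recovered for a count test. Ratios of members were tested by exact two-sided permutation in Python 3.11.15 with numpy 2.4.6 and pandas 2.3.3. The limma fit was tested on simulated data with independent libraries. The simulation did not cover the correlation of libraries with the same replicate number. The changes planted in it were larger than those called for members in the Zbtb16 table.

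The members and all gene lists were chosen with earlier results of these data known. Named genes of the other pathway lists were taken from those called, with the largest differences first. Groups follow the labels, and no library was left out. Other pseudocounts (1 and 0.01), filters, scalings, a replicate block, a correction for transcript length and GC content (GENCODE M21) and fits without each library were tried. The length and GC correction and the fit of replicates 2 and 3 alone were chosen after seeing the data. A gene from the lists of most similar genes is not reported here. Sequences are from RefSeq, and protein sequences were not used here.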

Additional observations from a re-analysis of the deposited data

Results flagged for a closer look

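The difference between cKO and WT differed between the labelled fractions of the Sox3 table for 3 members, by the interaction term in limma, which was added after the data were seen. It was -0.62 on the log2 scale for Dnmt3a (adjusted p = 0.0355), 1.14 for Dnmt3b (adjusted p = 0.0188) and -2.21 for Dnmt3l (adjusted p = 0.00136), each the KIT+ less the THY1+ difference. For Dnmt3l the cKO difference was 1.31 in THY1+ and -0.90 in KIT+ as labelled, and for Dnmt3b it was -0.87 and 0.27. In this term 37.5% of all genes passed. The WT libraries enter it by their labels, against which their Thy1 and Kit levels go, so genotype and fraction cannot be told apart in these 3 values.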

How the results depend on the processing

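With a pseudocount of 1 the number of members called went from 1 to 0 in the WT step of the Zbtb16 table, from 3 to 1 in the null step, from 1 to 0 in the cKO step, from 2 to 1 between the WT groups of the Sox3 table, and from 5 to 2 in cKO against WT as labelled THY1+. Testing only genes whose mean reached 1 FPKM, which leaves out Dnmt3l, gave 0 in the cKO step and 1 between those WT groups. Libraries shifted to equal germ cell markers, by -0.71 to 0.45 on the log2 scale, gave 1 in null against WT THY1+, 2 in the Zbtb16 interaction, 4 in the cKO step, 1 between the WT groups, 5 in cKO against WT averaged and 5 as labelled KIT+. With it the null step went from 3 to 4 members with Tet3 (0.93, adjusted p = 0.00406), and cKO KIT+ against WT labelled THY1+ from 2 to 3 with Dnmt3a (0.81, adjusted p = 0.00105). This shift moves every gene of a comparison alike. It raised the calls over all genes too, in the comparisons for which these are given below. Length and GC correction gave 1 between the WT groups and 3 as labelled THY1+. As labelled KIT+ Dnmt3l was lost with a pseudocount of 1 (adjusted p = 0.0511) and with length and GC correction (0.0678). Replicates 2 and 3 alone gave 0 between the WT groups, averaged, as labelled KIT+ and in cKO KIT+ against WT labelled THY1+. Without 1 library the count was 0 to 1 in the WT step, 1 to 3 in the null step, 0 to 1 in the interaction, 1 to 3 in the cKO step, 0 to 2 between the WT groups, 3 to 5 as labelled THY1+ and 1 to 3 as labelled KIT+. Signs changed, on the log2 scale, for Dnmt3l in the null step (0.059 with equal germ cell markers), Dnmt1 averaged (-0.015 with length and GC correction), Dnmt3a as labelled KIT+ (0.71 with equal germ cell markers, adjusted p = 0.00133, and -0.12 to 0.065 without 1 library), Tet3 as labelled KIT+ (-0.14 to 0.34 without 1 library), and, in cKO KIT+ against WT labelled THY1+, Dnmt3a (-0.038 with length and GC correction) and Dnmt3b (0.042 with equal germ cell markers). The causes were not tested. Members that no setting called changed sign in 86 of 1288 fits. The Dnmt3b to Dnmt3a ratio held in every fit without 1 library of the Zbtb16 table (0.74 to 0.84 for the fractions and -0.44 to -0.32 for genotype, on the log2 scale), and Tet3 to Tet2 in every fit of the Sox3 table (-1.12 to -0.73).

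Samples with the same replicate number had a mean correlation of their deviations of 0.40 in the Zbtb16 table (lowest of 18 pairs -0.066) and 0.17 in the Sox3 table (lowest -0.18), so the numbers were not taken as pairing, although 11 of 12 and 9 of 12 libraries correlated best with their own number. A fit with a replicate block called 2 members in the Zbtb16 interaction, Tet1 and Tet2 (adjusted p = 0.0312 and 0.0294), 2 in the cKO step, Dnmt3l and Uhrf1 (Uhrf1 adjusted p = 0.00894), and 4 in the null step, with Dnmt3l (adjusted p = 0.0360). Over all genes the block moved the calls from 890 to 1980 in null against WT THY1+, from 58 to 513 in KIT+, from 7 to 2756 in the interaction and from 15 to 29 in cKO THY1+ against WT labelled KIT+. The pseudocount of 1 moved them from 4737 to 2883 in the WT step, from 6532 to 4070 in the null step and from 2188 to 1024 in cKO against WT averaged. Equal germ cell markers moved the last from 2188 to 7336 and the null step from 6532 to 12144, and replicates 2 and 3 alone moved the averaged calls to 597. Depth limits Dnmt3l most.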

Other observations

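Dppa3, which acts on maintenance methylation through UHRF1, is given by group. In the Zbtb16 table it averaged 0.282 FPKM in WT THY1+, 1.83 in WT KIT+, 1.81 in null THY1+ and 2.08 in null KIT+ libraries, so that the rise over the step seen in WT did not pass in the null (adjusted p = 0.795), and the interaction did not pass either (log2 -2.18, adjusted p = 0.0938). In the Sox3 table it averaged 2.16 FPKM in WT labelled THY1+, 0.420 in WT labelled KIT+ and 0.135 in cKO THY1+ libraries, and it was listed at 0 in cKO KIT+ libraries. Dppa3 was named here after its values were seen.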
